A study of Arabidopsis thaliana with 54 samples.

Results

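The change at dawn in short days was measured as the difference between Arabidopsis seedlings harvested after 4 h of light (ZT04) and seedlings harvested at the end of the night (ZT00), both in a photoperiod of 8 h light and 16 h dark (SD). Zeitgeber time (ZT) counts hours from lights on. The comparison used 6 of the 54 RNA-seq libraries of the series, 3 at ZT04 and 3 at ZT00, chosen by their labels. All seedlings were wild-type Col-0, the standard laboratory accession, grown for 10 days in equinox days (EQ, 12 h light) at 22°C and then kept for 48 h in SD, EQ or long days (LD, 16 h light). Each library pooled whole seedlings of 1 plate, roots included, so fewer cells of a type and less RNA per cell cannot be told apart. The ZT04 seedlings differed from the ZT00 seedlings both in light and in time of day, and these cannot be told apart in this comparison.

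The circadian clock of plants is a loop of transcription factors: MYB factors peak around dawn and repress evening genes, and pseudo-response regulators follow through the day and repress the MYB genes. Light at dawn also starts photosynthesis, which ends the nightly use of starch, and genes of carbon starvation are known to respond to the sugar supply. Antenna proteins (LHCA, LHCB) bind chlorophyll and pass light energy to the photosystems.

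Totals per library lay between 3016707 and 3417461 counts at ZT04 and between 2976677 and 3797568 at ZT00. Of 32833 gene identifiers in the table, 8988 (27.6% of those matched to the annotation) overlap a gene on the other strand, and these held 92.3% of the counts in the 6 libraries. The identifier with the most counts, AT2G08665, a non-coding RNA gene opposite the antenna gene LHCB1.5, took 16.2% to 17.4% of the counts at ZT04 and 8.22% to 8.65% at ZT00. Reads of a gene and of the gene opposite it cannot be told apart here, so an opposite gene is named beside the identifiers whose values are given. Whether the strand setting used by the authors suits these libraries was not tested. Absolute levels are therefore uncertain for all genes, those with no gene opposite included. ERCC spike-in RNA, added in the laboratory, made up 0.124% to 0.148% of the counts at ZT04 and 0.184% to 0.267% at ZT00. Among 12 root markers, 2 passed the filter on low counts and neither was called, against 16.6% of all tested identifiers. Both had a log2 fold change below 0, with a median of -0.89. These 2 low markers cannot show whether tissue composition differed. SHR, one of them, had 3.91, 3.32 and 1.15 CPM (counts scaled to the size of the library) at ZT04 and 3.42, 6.99 and 3.80 CPM at ZT00.

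Between ZT04 and ZT00, 623 of 8306 tested identifiers were higher (7.5%) and 754 were lower (9.08%), by edgeR's quasi-likelihood test at an adjusted p under 0.05. The median fold of the called identifiers was 2.24 for those higher and 2.41 for those lower. With library totals alone 477 were higher and 1018 lower (31.9% of calls higher), and with scaling to the spike-in 1103 were higher and 205 lower (84.3%), against 45.2% in the main test. The median log2 fold change of all tested identifiers was -0.07 in the main test, -0.24 with totals and 0.49 with the spike-in, and the changes below are relative to the main scaling. Leaving out 1 library gave 346 to 430 identifiers higher and 367 to 546 lower. The count of higher identifiers was 346 without ZT04 B, 394 without ZT04 C, and 391, 394 and 364 without ZT00 A, B and C. The count of lower identifiers was 485 without ZT04 B, 496 without ZT04 C, and 387, 394 and 367 without ZT00 A, B and C. In 1 fit over all 18 SD libraries, 534 were higher and 727 lower, and 1040 of the 1377 calls were shared.

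An opposite-strand gene was annotated for 516 of the 623 higher identifiers, 440 of the 754 lower ones and 4565 of the 8306 tested. Both identifiers of an opposite-strand pair were tested in 1736 pairs, and 71.5% of these changed with the same sign. Of 216 pairs with both called, 197 were called in one direction and 19 in opposite directions.

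**Figure D1:**
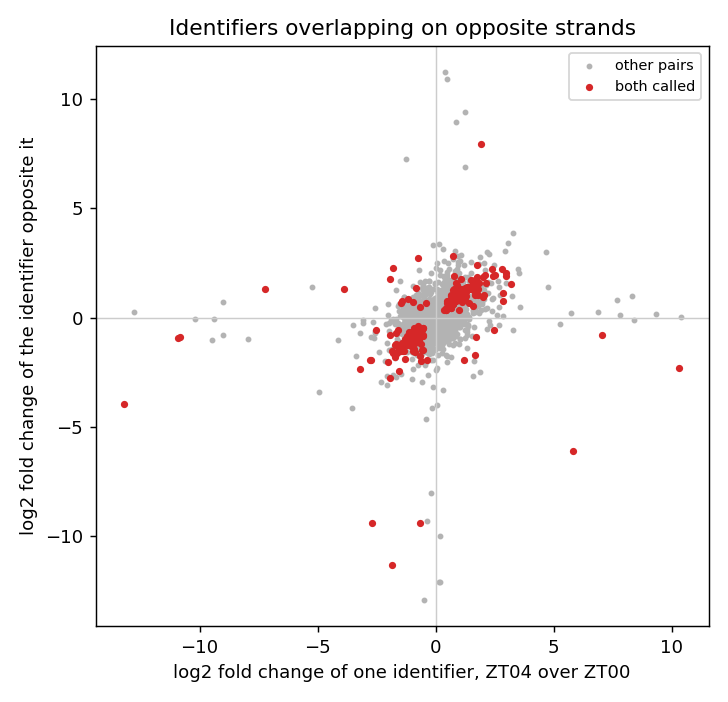
Log2 fold change (ZT04 over ZT00) of an identifier on the x axis and of the identifier overlapping it on the other strand on the y axis, for 1736 pairs, with pairs called on both sides in red. Of the 216 red pairs, 197 have the same sign, and the points far from 0 along an axis are mostly identifiers without counts in 1 group, whose fitted values are no bound.

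Clock genes that peak at dawn fell. LHY (AT1G01060), a MYB repressor of the clock with no gene opposite, had 6.19, 6.31 and 2.3 CPM at ZT04 and 56.7, 44.3 and 61.8 CPM at ZT00. Its log2 fold change was -3.43 ± 0.42 (SE derived from the test statistic, n = 3 per group, edgeR adjusted p = 0.0045). CCA1 (AT2G46830), its close partner, had 7.82, 3.65 and 5.37 CPM at ZT04 and 22.6, 30.8 and 36.4 CPM at ZT00, a log2 fold change of -2.39 ± 0.37 (edgeR adjusted p = 0.0098). In both genes every ZT04 library lay below every ZT00 library, as in all 754 lower identifiers, so this adds nothing to the call. The groups did not overlap in 40.2% of all tested identifiers. RVE1, a related MYB factor that links the clock to auxin, had no counts in the 3 ZT04 libraries and 415, 318 and 420 CPM at ZT00. AT5G17305, the identifier opposite RVE1, had 32.6, 58.4 and 29.9 CPM at ZT04 and 678, 550 and 671 CPM at ZT00, a log2 fold change of -3.96 ± 0.30. Reads of RVE1 and of AT5G17305 cannot be told apart, so no fold is given for RVE1. Of 8 listed morning MYB genes, 4 were tested, 3 were lower (75%, against 9.08% of all tested identifiers) and none was higher. RVE1 passed the filter on low counts only through ZT00, so it could be tested only as lower. LHY, with 2.3 CPM in ZT04 C, would not have passed through ZT04 alone. The share is therefore a description only. The number of morning MYB genes called held under each scaling tried. With the replicate block, however, the calls of LHY (edgeR adjusted p = 0.054) and CCA1 (edgeR adjusted p = 0.076) were lost.

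Of 17 listed day and evening clock genes, 6 were tested and 1 was called (16.7%, against 16.6% of all tested identifiers). PRR7, a pseudo-response regulator that represses CCA1 and LHY, had 13.7, 11.3 and 9.59 CPM at ZT04 and no counts at ZT00. It was at least 37.7-fold higher, taking 3 counts over the group as the floor, and the call was lost without ZT04 A or without ZT04 B. Without counts at ZT00, PRR7 passed the filter on low counts only through ZT04, so it could be tested only as higher. GI, a regulator of flowering and of the clock, and ELF4, a part of the evening complex, had no counts in the 6 libraries. LNK2, a coactivator of clock genes that also lies opposite RPB5E, had 442, 409 and 0 CPM at ZT04 and 2223, 2221 and 2152 CPM at ZT00 and did not pass the test (log2 fold change -2.94, edgeR adjusted p = 0.33), and ZT04 C stood apart from the other libraries of its group. The non-coding RNA identifier opposite LNK2, AT3G08405, was lower, with 125, 126 and 135 CPM at ZT04 and 650, 644 and 627 CPM at ZT00.

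The time course placed these values within the short day. LHY averaged 54.3 ± 9.02 CPM at ZT00, 4.93 ± 2.28 at ZT04, 0 at ZT08 and ZT12, 0.24 ± 0.42 at ZT16 and 35.9 ± 14.7 at ZT20 (SD, n = 3). PRR7 averaged 11.5 ± 2.06 CPM at ZT04 and 14.6 ± 4.15 at ZT08, and had no counts at ZT00, ZT12, ZT16 and ZT20.

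**Figure D2:**
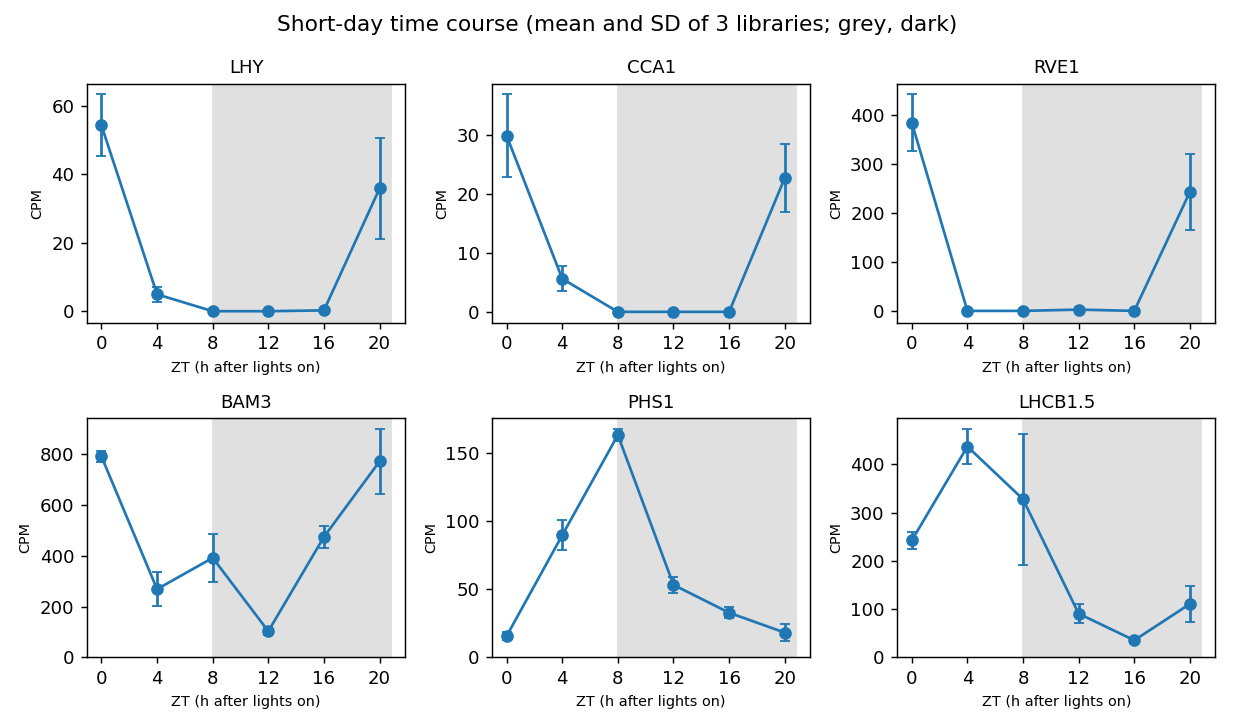
Mean CPM and SD of 3 libraries (y axis) against ZT in hours (x axis) in SD, with the dark hours in grey, for 6 genes. LHY, CCA1 and RVE1 are highest at ZT00 and ZT20, PHS1 is highest at ZT08 with 163 CPM, and BAM3 is lowest at ZT12 with 103 CPM.

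The promoters of LHY and CCA1 are shown because both genes fell and share the G-box, CACGTG. They were read from the RefSeq assembly TAIR10.1, from 250 bases before to 50 after the annotated start, and were chosen after the values were seen. Capitals mark the G-box. The LHY window is chr1:37822-38121 (minus strand) and the CCA1 window is chr2:19245341-19245640 (plus strand).
LHY: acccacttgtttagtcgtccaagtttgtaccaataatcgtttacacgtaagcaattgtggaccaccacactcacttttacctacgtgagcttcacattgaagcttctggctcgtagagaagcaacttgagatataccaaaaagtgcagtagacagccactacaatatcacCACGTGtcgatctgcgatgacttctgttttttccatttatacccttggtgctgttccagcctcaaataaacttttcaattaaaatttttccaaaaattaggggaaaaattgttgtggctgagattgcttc
CCA1: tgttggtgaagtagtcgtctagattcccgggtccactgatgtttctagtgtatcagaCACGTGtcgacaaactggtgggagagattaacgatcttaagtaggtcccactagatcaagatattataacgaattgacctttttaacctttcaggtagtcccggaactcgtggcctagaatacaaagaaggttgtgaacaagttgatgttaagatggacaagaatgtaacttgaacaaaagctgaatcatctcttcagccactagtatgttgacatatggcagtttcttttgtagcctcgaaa
The G-box, which reads the same on both strands, was found in windows of this size at 7.71% of the higher identifiers, 6.37% of the lower ones and 7.45% of all 8216 tested identifiers with a window. The evening element AAAATATCT, searched on both strands, was found in 2.57%, 2.12% and 2.81% of the same sets, and GATAAG in 18.1%, 17.8% and 16.4%. AAAAATCT was found in 8.03%, 6.64% and 7.47%, AAACCCTA in 5.78%, 3.19% and 5.46%, and AGCCGCC in 1.28%, 1.86% and 1.02%. No test was made on these shares, and a match is a description of letters only.

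Carbon starvation genes were lower at ZT04 wherever they were called. Of 16 tested genes of dark and sugar starvation, 8 were lower (50%, against 9.08% of all tested identifiers) and none was higher. Their median log2 fold change was -1.56 against -0.07 over all tested identifiers. The lists, this one included, were chosen with earlier results of these data known, so such shares are descriptions only. With scaling to the spike-in the median was -1.01 and 2 were lower. The count of lower genes was 5, 4 and 2 without ZT04 A, B and C, 3, 1 and 1 without ZT00 A, B and C, and 4 of 19 tested in the fit over all 18 SD libraries. DIN6, an asparagine synthetase induced in the dark and lying opposite AT3G47341, had 6.51, 8.30 and 9.97 CPM at ZT04 and 29.4, 47.1 and 57.7 CPM at ZT00. Its log2 fold change was -2.43 ± 0.32 (edgeR adjusted p = 0.0058), and the call was kept without each library in turn but not in the fit over all 18 SD libraries (edgeR adjusted p = 0.27). DIN1, a gene induced in darkness and senescence, had 3.58, 0 and 3.45 CPM at ZT04 and 42.0, 45.0 and 44.0 CPM at ZT00. DIN1 was called with all libraries (log2 fold change -4.19 ± 0.90) and in 1 of the 6 fits that left out 1 library, the fit without ZT04 B. With all libraries, ZT04 alone would not have passed DIN1 through the filter on low counts. PP2-A13, a phloem protein gene opposite PEX11E, had 0, 222 and 167 CPM at ZT04 and 529, 420 and 586 CPM at ZT00. It did not pass the test with all libraries (log2 fold change -1.98, edgeR adjusted p = 0.50) and passed it without ZT04 A, the library without counts.

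Enzymes that break down amino acids followed the same direction, with 4 of 9 tested genes lower (44.4%, against 9.08% of all tested identifiers) and none higher. Their median log2 fold change was -1.15. MCCA, a subunit of an enzyme of leucine breakdown that lies opposite AT1G03100 and AT1G04157, had 82.1, 104 and 74.0 CPM at ZT04 and 653, 516 and 631 CPM at ZT00. HGO, homogentisate dioxygenase of tyrosine breakdown (opposite AT5G54090), had 23.1, 30.5 and 29.2 CPM at ZT04 and 147, 149 and 177 CPM at ZT00. The log2 fold changes were -2.78 ± 0.17 for MCCA and -2.50 ± 0.16 for HGO, and both calls were kept without each library in turn. With scaling to the spike-in 2 of the 9 were lower, and 2 were lower without ZT04 B or without ZT00 A.

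The 2 called genes of starch breakdown moved in opposite directions. PHS1, the plastid glucan phosphorylase (opposite AT3G29330), had 77.5, 92.6 and 99.3 CPM at ZT04 and 14.0, 19.2 and 13.9 CPM at ZT00, a log2 fold change of 2.52 ± 0.20 (edgeR adjusted p = 0.0013). BAM3, a chloroplast beta-amylase active at night (opposite AT4G06665), had 199, 335 and 273 CPM at ZT04 and 767, 804 and 805 CPM at ZT00, a log2 fold change of -1.55 ± 0.18 (edgeR adjusted p = 0.0042). These were the 2 called of 9 tested genes of starch breakdown (22.2%, against 16.6% of all tested identifiers called either way). Of 9 tested genes of nitrogen assimilation, 1 was higher and 1 was lower, again 22.2%, and 5 had a log2 fold change above 0. NIA2, a nitrate reductase, had 99.0, 105 and 79.8 CPM at ZT04 and 277, 336 and 304 CPM at ZT00, a log2 fold change of -1.68 ± 0.15. GLN1.1, a cytosolic glutamine synthetase, had 5.86, 7.97 and 6.52 CPM at ZT04 and no counts at ZT00, at least 22.2-fold higher. It passed the filter on low counts only through ZT04, so it could be tested only as higher. Its call was lost without any 1 of the ZT04 libraries and in the fit over all 18 SD libraries.

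**Figure D3:**
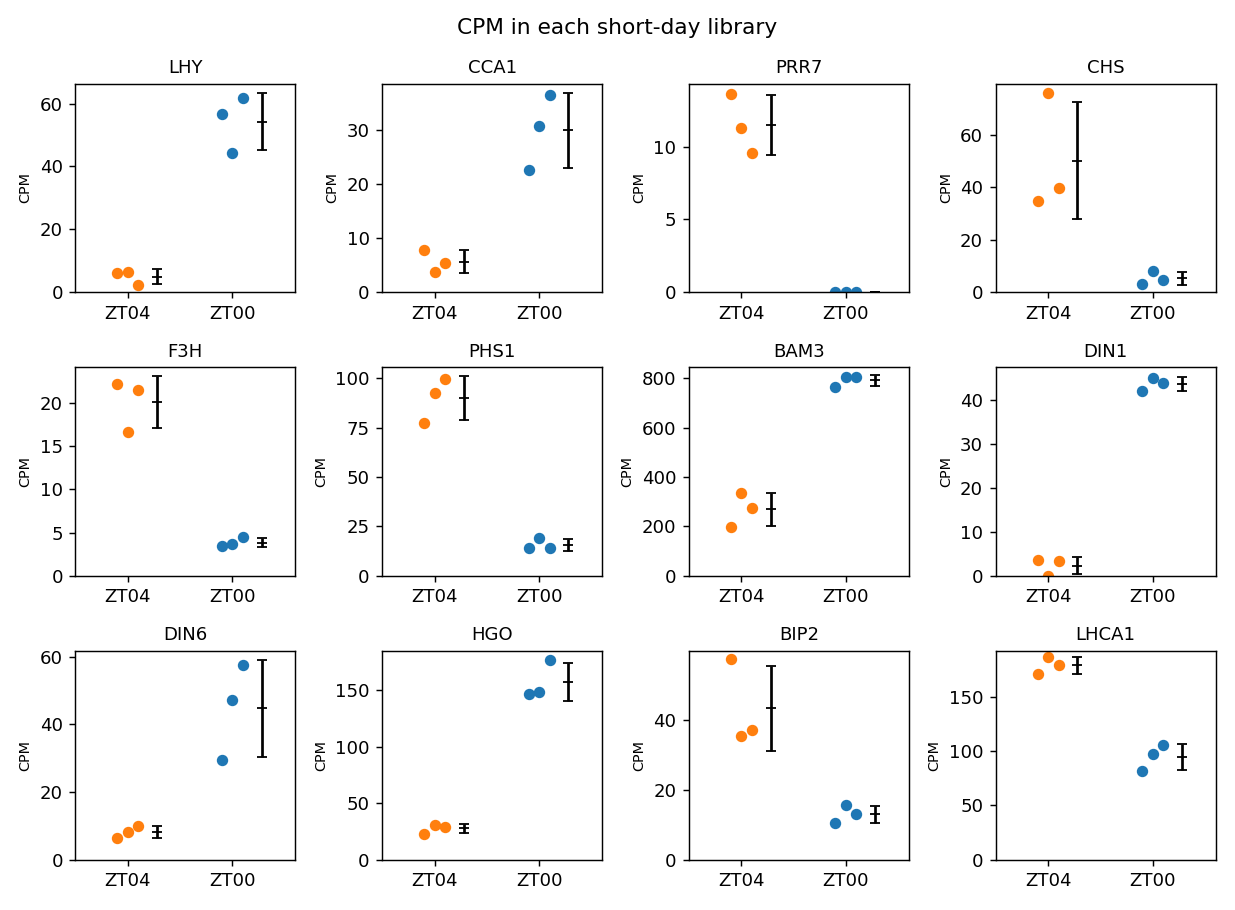
CPM (y axis, starting at 0) of 12 genes in each library, ZT04 (orange) left of ZT00 (blue), with the mean and SD of 3 libraries beside the points. The groups do not overlap in any of the 12 panels, as in 40.2% of all tested identifiers and in every called one. LHY, CCA1, BAM3, DIN1, DIN6 and HGO are lower at ZT04.

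Of 19 tested antenna genes, 8 were higher, against 7.5% of all tested identifiers, 1 was lower and 10 did not pass the test. The median log2 fold change was 0.43, and over the 11 genes with no gene opposite it was 0.10. In the fit over all 18 SD libraries 2 were higher and 1 lower, and LHCA1 (edgeR adjusted p = 0.057) was not among them. LHCB3, a subunit of the photosystem II antenna, had 2548, 2627 and 3209 CPM at ZT04 and 1149.6, 1111 and 1002 CPM at ZT00. LHCA1, a photosystem I antenna gene with no gene opposite, had 171, 187 and 179 CPM at ZT04 and 81.7, 97.3 and 105 CPM at ZT00. The log2 fold changes were 1.37 ± 0.11 for LHCB3, which lies opposite the myosin gene ATM2, and 0.92 ± 0.13 for LHCA1. LHCB1.1 was lower, with 279, 276 and 238 CPM at ZT04 and 338, 372 and 433 CPM at ZT00, but LHCB1.1, LHCB1.2 and LHCB1.3 are near-identical and their counts are uncertain. That call was lost without any 1 of the 6 libraries, and with the spike-in the log2 fold change was 0.04. Of 30 tested genes of the photosystems and electron transport, 4 were higher and none lower (13.3%, against 16.6% of all tested identifiers called either way). FNR1, which passes electrons to NADP and lies opposite AT5G66180, was one, with 707, 764 and 756 CPM at ZT04 and 417, 432 and 431 CPM at ZT00, and its call was kept without each library in turn, as was that of PSAH2. PSAD2 kept its call only without ZT04 C, and PSAG lost it without ZT04 B, ZT00 B or ZT00 C. In the fit over all 18 SD libraries the calls of PSAD2 and PSAH2 were lost.

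Of 19 tested enzymes of the Calvin cycle, which fixes carbon dioxide, 1 was higher and 2 were lower (15.8%, near the 16.6% of all tested identifiers), with a median log2 fold change of -0.27 that was 0.23 with the spike-in. CFBP1, the one higher, and GAPA lost their calls without any 1 of the 6 libraries, and FBA1 kept its call only without ZT04 C. RBCS1A, the main gene of the small Rubisco subunit, had 416, 379 and 331 CPM at ZT04 and 439, 606 and 621 CPM at ZT00 and did not pass the test (edgeR adjusted p = 0.082).

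In photorespiration, which recycles the product of the oxygen reaction of Rubisco, 1 of 14 tested genes was higher and 2 were lower (21.4%, against 16.6% of all tested identifiers). GGT1, an aminotransferase of the pathway, had 82.7, 71.7 and 74.4 CPM at ZT04 and 164, 196 and 194 CPM at ZT00, a log2 fold change of -1.26 ± 0.13. GLDP1, a subunit of glycine decarboxylase that lies opposite CBL10, had 134, 142 and 139 CPM at ZT04 and 74.9, 86.5 and 86.2 CPM at ZT00, a log2 fold change of 0.75 ± 0.11. These calls were kept without each library in turn. GOX1, a glycolate oxidase opposite AT3G14430, was the other lower gene, with a log2 fold change of -0.62 ± 0.11 that was -0.07 with the spike-in, and its call was lost without any 1 of the 6 libraries. Of 13 tested genes of chlorophyll synthesis, 3 were higher (CHLI2, GUN4 and PORB) and 1 was lower (CHLM), 30.8% in all. The calls of PORB and CHLM were lost without any 1 of the 6 libraries, CHLI2 kept its call only without ZT04 A, and GUN4 kept it only without ZT04 B or without ZT00 C.

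Enzymes of flavonoid synthesis were among those higher. CHS, chalcone synthase, the entry enzyme of the pathway (opposite AT5G13940), had 34.9, 76.0 and 39.9 CPM at ZT04 and 3.08, 8.02 and 4.75 CPM at ZT00. Its log2 fold change was 3.23 ± 0.48 (edgeR adjusted p = 0.0090), a call lost without ZT00 C. F3H, which acts after it and lies opposite AT3G51238, had 22.1, 16.6 and 21.5 CPM at ZT04 and 3.42, 3.62 and 4.44 CPM at ZT00, a log2 fold change of 2.39 ± 0.28. Of 9 tested genes of phenylpropanoid and flavonoid synthesis 3 were higher (33.3%, against 7.5% of all tested identifiers) and none lower. In the fit over all 18 SD libraries none of 11 was called, CHS (edgeR adjusted p = 0.083) and F3H (0.22) included. PAL1, the first enzyme of the phenylpropanoid pathway, had 13, 18.3 and 19.2 CPM at ZT04 and 13.3, 4.14 and 8.24 CPM at ZT00 and did not pass the test.

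Chaperones were higher in 7 of 12 tested genes (58.3%, against 7.5% of all tested identifiers) and lower in none. The log2 fold changes of all 12 were above 0, with a median of 1.47. BIP2, a chaperone of the endoplasmic reticulum, had 57.3, 35.5 and 37.2 CPM at ZT04 and 10.6, 15.5 and 13 CPM at ZT00. BIP1 and BIP2, and HSP90.2 and HSP90.3, are near-identical pairs with uncertain counts, and the BIP2 call was lost without ZT00 A or without ZT00 C. HSP90.3 lost its call without any 1 of the 6 libraries, BIP1 kept it only without ZT00 B, and HSP90.7 only without ZT04 C. The count of higher chaperones was 2, 2 and 3 without ZT04 A, B and C, and 1, 2 and 1 without ZT00 A, B and C. With library totals alone 4 of the 12 were called.

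**Figure D4:**
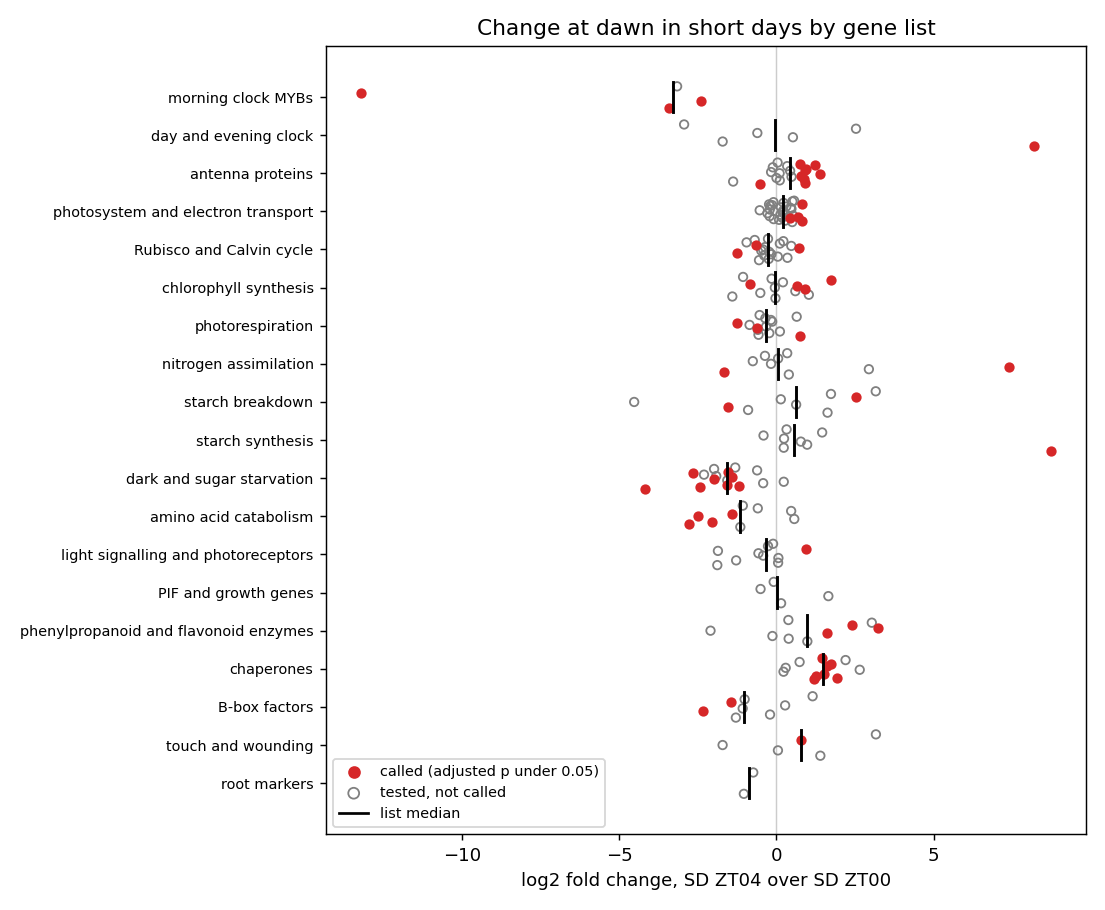
Log2 fold change (x axis, ZT04 over ZT00) of every tested gene of 19 lists (rows), with called genes in red, other tested genes as open circles and the list median as a black bar. The medians of the starvation genes (-1.56) and of amino acid breakdown (-1.15) lie left of 0 and those of the chaperones (1.47) right of it, and the points beyond 7 in size are genes without counts in 1 group, whose fitted values are no bound.

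Among light signalling genes, 1 of 10 tested was called (10%, against 16.6% of all tested identifiers). This was PHOT1, a blue light receptor, with 50.2, 49.8 and 42.2 CPM at ZT04 and 21.5, 25.6 and 27.9 CPM at ZT00. Its call was kept only without ZT04 C among the 6 fits that left out 1 library. It was lost in the fit over all 18 SD libraries. HY5, a factor that promotes light responses, had 4.56, 0 and 2.68 CPM at ZT04 and 7.52, 9.06 and 10.8 CPM at ZT00 and did not pass the test. None of 4 tested PIF and growth genes was called. COL2, a B-box factor related to CONSTANS (opposite AT3G02370 and AT3G02390), had 393, 504 and 573 CPM at ZT04 and 2362, 2425 and 2698 CPM at ZT00.

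Among identifiers with no gene opposite and a mean of 20 CPM or more, MS2, a methionine synthase, had the largest increase, with 59.6, 37.5 and 39.9 CPM at ZT04 and 5.47, 4.40 and 2.53 CPM at ZT00, a call lost in the fit over all 18 SD libraries (edgeR adjusted p = 0.083). RD22, a gene known for its response to drought, had 135, 98.9 and 129 CPM at ZT04 and 19.8, 15.8 and 13.6 CPM at ZT00. AT1G15840, an uncharacterized protein, had the largest decrease, with 1.3, 7.63 and 2.3 CPM at ZT04 and 123, 125 and 99.2 CPM at ZT00. Several identifiers, with or without a gene opposite, had no counts in 1 group. MPK6, a MAP kinase opposite AT2G09500, had none at ZT04 and 329, 308 and 309 CPM at ZT00, and ADF4, an actin depolymerizing factor opposite AT5G59895, none at ZT04 and 266, 348 and 227 CPM at ZT00. Both of these calls were lost in the fit over all 18 SD libraries. In all, 80 tested identifiers had no counts at ZT04 and 43 had none at ZT00, and all of them were called. A gene lay opposite 46 of these, and opposite 55.0% of all tested identifiers. Each identifier without counts in 1 group passed the filter on low counts only through the other group. The direction of its change was therefore set before the test, RVE1, PRR7 and GLN1.1 included. Other identifiers had some counts in their low group, but too few for that group alone to pass the filter. LHY, DIN1, CHS, MS2 and AT1G15840 were among them, so their testing, and the direction found, also depended on the high group.

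The identifiers called at dawn were then read in SD libraries that the comparison did not use, ZT08 (end of the light) and ZT20 (night), where 533 of 8306 tested were higher (6.42%) and 486 lower (5.85%). Of the 605 dawn-higher identifiers tested there, 259 were higher and 9 lower. Of the 714 dawn-lower identifiers tested there, 285 were lower and 4 higher. PHS1 was higher at ZT08 (log2 fold change 3.17) and BAM3 lower (-0.97), whereas HGO (-1.01) and DIN6 (-0.51) did not pass that test.

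Between ZT04 and ZT00 in EQ, 3.92% of tested identifiers were higher and 5.32% lower, 9.25% in all. In LD 0.894% were higher and 0.894% lower, 1.79% in all. Of the identifiers higher at dawn in SD, 190 of 595 tested were higher in EQ and 47 of 600 in LD. Of those lower in SD, 289 of 699 were lower in EQ and 52 of 714 in LD. These counts do not show that the changes differ between photoperiods, which was tested for the difference itself. Set side by side, the log2 fold changes in SD, EQ and LD were -3.43, -3.47 and -2.22 for LHY, 2.52, 2.17 and 1.37 for PHS1, -2.50, -2.30 and -1.78 for HGO, and -2.39, -0.59 and -0.60 for CCA1.

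The change at dawn differed between SD and EQ at 3 identifiers (0.0269% of 11161 tested) and between SD and LD at 18 (0.161%). LHCB1.5 lies opposite AT2G08665 over 1045 bases, and their reads cannot be told apart. In ZT04 A of SD, AT2G08665 had 529385 counts and LHCB1.5 had 1459. LHCB1.5 had 475, 431 and 404 CPM at ZT04 and 222, 248 and 257 CPM at ZT00 in SD. In LD it had 398 to 503 CPM at ZT04 and 81.9 to 95.5 CPM at ZT00. The SD and LD libraries overlapped at ZT04, and at ZT00 every SD library was above every LD library. The log2 fold change in SD minus that in LD was -1.47 ± 0.18 (edgeR adjusted p = 0.0029). Of 19 tested antenna genes, 5 were called in SD minus LD, all negative, and the median difference was -1.22 against -0.06 over all identifiers. In SD minus EQ, 1 was called and the median was -0.88. The calls depended on the libraries used. Leaving out a letter took 1 library from every group at once, and single libraries were not left out here. With a letter left out, 14 to 19 identifiers were called in SD minus EQ, none of them among the 3. In SD minus LD, 16 to 22 were called and 1 or 2 of them were among the 18.

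**Figure D5:**
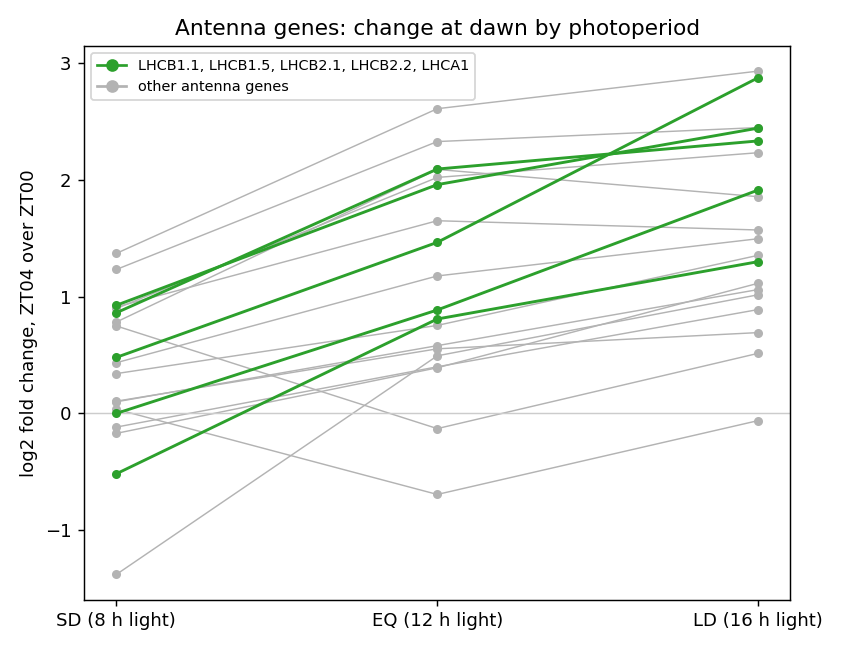
Log2 fold change (y axis, ZT04 over ZT00) of each of 19 antenna genes in SD, EQ and LD (x axis), with lines joining the values of a gene and the 5 genes called in SD minus LD in green. LHCB1.5, which lies opposite AT2G08665, is at 0.86 in SD, 2.09 in EQ and 2.33 in LD.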

How the data were processed

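RNA from whole Col-0 seedlings was sequenced as 54 libraries, 6 of them used for the dawn comparison. The authors trimmed reads with Trimmomatic 0.39, aligned them to TAIR10 with HISAT2 2.1.0, with its strand option set to FR, and counted them with StringTie 2.1.2. The deposited values are raw whole-number counts per gene. The kit is not stated to mark strand.

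Counts were tested with edgeR 4.0.16 (R 4.3.3; TMM scaling, filterByExpr with a minimum count of 10, quasi-likelihood test, Benjamini-Hochberg adjustment over all tested identifiers, threshold 0.05) on the 6 libraries, without the 92 ERCC rows. Differences between photoperiods were interaction contrasts in 1 fit of 18 libraries. The ± beside a log2 fold change is its absolute value divided by the square root of the F statistic of the quasi-likelihood test. It was not estimated separately from the replicates. CPM were scaled by TMM over all 54 libraries. Counts of 0 in a group were bounded at 3 counts over the group. Gene positions and opposite-strand genes came from RefSeq TAIR10.1, matched by locus tag for 32548 of 32833 identifiers. The fitting code was checked on simulated counts, where many of the smaller changes were missed, so an identifier that did not pass the test was not shown to be unchanged. Replicates are separate plates. With 2976677 to 3797568 counts a library, low genes are measured with few counts, and intervals were not computed.

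Genes were named by rule: the 10 largest changes each way among called identifiers averaging 20 CPM or more whose groups did not overlap, the 5 largest without an opposite-strand gene, the 5 highest identifiers, up to 4 called genes of each list, a set of clock and photoperiod genes, and the 5 smallest adjusted p of each interaction; genes outside it were picked after their values were seen. Members and lists were chosen with earlier results of these data known. Alternatives were other scalings, filters, DESeq2 1.42.0, a replicate block, 1 fit over all 18 SD libraries and fits without single libraries.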

Additional observations from a re-analysis of the deposited data

Results flagged for a closer look

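Each identifier below changed differently at dawn in SD than in another photoperiod by edgeR's interaction test, given as the log2 fold change in SD minus that in EQ or LD. Against EQ, the values were -1.23 for LHCB1.5, -6.92 for PEN2 and -8.58 for LRL2. Against LD, the antenna genes had -1.47 (LHCB1.5), -2.40 (LHCB2.2), -1.82 (LHCB1.1), -1.52 (LHCA1) and -1.91 (LHCB2.1), and AT2G08665, opposite LHCB1.5, had -1.21.

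The other negative values against LD were -2.09 for AT3G08405 (opposite LNK2), -6.67 for PEN2, -8.36 for LRL2, -1.69 for AT2G35820, -2.99 for AT3G02030 (opposite SRG3), -1.48 for CP5 (opposite AT1G64710) and -6.05 for MYB7. The positive ones were 2.80 for AT2G37580, 0.99 for AT2G03410 (opposite AT2G03420), 1.81 for AT2G09895 (opposite AT2G47390), 6.62 for AT4G14820 (opposite AT4G14819) and 0.72 for AT3G09795 (opposite AT3G62580). PEN2 had no counts at ZT00 in EQ and LD, LRL2 none at ZT04 in SD, MYB7 none at ZT00 in LD, and AT4G14820 none at ZT00 in SD, so these fitted values depend on the prior count and are no bound. The cause of the differences was not tested.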

How the results depend on the processing

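In the dawn comparison (623 higher, 754 lower) the counts were 391 and 485 with no filter on low counts, 152 and 158 with the replicate block, 1103 and 205 with spike-in scaling, 150 and 221 with only identifiers without an opposite-strand gene, and 346 to 430 and 367 to 546 without single libraries. The labels do not say whether libraries of the same replicate letter share a batch. Same-letter deviations correlated at -0.022, -0.0074 and -0.016, which with 3 libraries a group cannot settle it. For SD minus EQ (3 calls) there were 0 with no filter, 0 with the replicate block, 122 with DESeq2 and 14 to 19 without a replicate letter. For SD minus LD (18 calls) there were 8 with no filter, 32 with a stricter filter, 263 with DESeq2, 5 with the replicate block and 16 to 22 without a letter. For ZT08 against ZT20 (533 higher, 486 lower) there were 330 and 300 with no filter, 853 and 757 with DESeq2, 37 and 23 with the replicate block, and 269 to 349 and 194 to 392 without single libraries. The cause of these differences was not tested.

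Of 104 named and called identifiers, 66 kept their call in every fit without 1 library and 38 lost it in at least 1. The replicate block ended 61 calls and the fit over all 18 SD libraries 32. AT4G20362, the non-coding RNA opposite RABE1b, had a log2 fold change of 0.12 in the main test and -0.0587 with library totals, and LHCB1.1 (AT1G29920) had -0.52 and 0.0395 with spike-in scaling. The fit without AT2G08665 was added after seeing the data and gave 644 higher and 721 lower. GI and ELF4, without counts in these 6 libraries, could not be tested.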
